A study of Mus musculus with 6 samples.

Results

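Proliferating immune cells of mouse glioma and healthy brain are described here, split by lineage. Members were chosen by measured values: a cell barcode was counted as cycling when at least 4 of 8 mitotic genes (Mki67, Top2a, Birc5, Hmmr, Cenpe, Cenpf, Tpx2 and Cdca8) had a unique molecular identifier (UMI), and 1098 of 17362 barcodes met that rule. Each barcode was given to the lineage with the largest UMI sum: microglia (Tmem119, Olfml3, Gpr34, Crybb1, Golm1, Slc2a5), border macrophages (Mrc1, Pf4, Cbr2, Cd163, Lyve1), monocyte-derived cells (Ms4a4c, Plac8, Lyz1, Ly6i, Ly6c2) or T cells (Cd3d, Cd3e, Cd3g, Trac). The cycling barcodes comprised 510 assigned to microglia, 165 to border macrophages, 157 to monocyte-derived cells and 235 to T cells, and 31 were tied and left unassigned. These names stand for the largest sum only, as the mixing described below shows.

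Cells sorted by flow cytometry for CD45, the pan-leukocyte surface antigen, were profiled with 10x Genomics 3' v3 chemistry in 6 libraries. The Rbpj-deleted tumour group (Trp53 ko, Rbpj ko) had 2 libraries, the control tumour group (Trp53 ko, Rbpj wt) had 2, and the healthy brain group (Trp53 wt, Rbpj wt) had 2. Both tumour groups therefore shared the Trp53 deletion, and no healthy library carried it. The series design gives pools of 9 Rbpj-deleted tumours, 15 control tumours and 9 healthy brains, whereas the extraction protocol puts each mouse in a single well, so the number of animals behind a library is not settled. Early tumours were found and dissected by the GFP of a Rosa-CAG::GFP Cre reporter. The Cre driver, the age of the mice and the cells in which the deletions took place are not given in the sources used here.

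Cells commit to division when D-type cyclins with Cdk4 or Cdk6 relieve the block that the retinoblastoma family places on E2F factors. Replication genes are then transcribed in S phase, and mitotic genes follow in G2 and M under the MuvB complex, Mybl2 and Foxm1. Microglia renew slowly by local division in the healthy brain and multiply under signals through Csf1r, while T cells divide in bursts after antigen recognition. The 8 genes of the rule act late: Mki67 coats mitotic chromosomes, Top2a untangles DNA, Birc5 and Cdca8 belong to the chromosomal passenger complex, Cenpe and Cenpf act at kinetochores, and Hmmr and Tpx2 act on the spindle.

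Promoters of genes of this class are known for a cell cycle homology region, TTTGAA or TTTAAA, read by the MuvB complex, and for CCAAT boxes read by NF-Y. Of the 8 genes, 7 had an entry among the RefSeq promoters (GRCm38.p6), and Tpx2 was not matched. In the 250 bases before the start site, 6 of the 7 held CCAAT, 4 held TTTGAA or TTTAAA and 3 held both, counted on either strand. Among all 32851 promoters, 33.8% held CCAAT, 25.2% held TTTGAA or TTTAAA and 8.78% held both. The last 100 bases before the start site are shown for Top2a, Cdca8 and Hmmr, the 3 of the 7 matched genes that hold more than 1 match there. Each is written 5' to 3' on the strand of its gene, with the motifs or their reverse complements in capitals. A match of letters is a description and was not tested as a binding site.
Top2a, chr11:99024190-99024289, minus strand: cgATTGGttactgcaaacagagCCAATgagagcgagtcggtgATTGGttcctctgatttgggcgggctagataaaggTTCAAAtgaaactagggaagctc
Cdca8, chr4:124936918-124937017, minus strand: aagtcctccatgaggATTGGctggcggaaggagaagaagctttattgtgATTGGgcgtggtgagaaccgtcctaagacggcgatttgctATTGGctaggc
Hmmr, chr11:40733438-40733537, minus strand: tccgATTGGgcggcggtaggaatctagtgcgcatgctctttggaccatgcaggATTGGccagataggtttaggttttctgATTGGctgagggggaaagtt

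The libraries held 17430763 to 55229031 UMIs in 758 to 7263 barcodes, none below 1000 UMIs. Levels are given as CPM, counts scaled to the same total in every library or class of barcodes. Rbpj was still detected in the sorted cells, at 64.8 and 47.6 CPM in Rbpj-deleted tumours, against 88.9 and 87.2 CPM in control tumours, and the healthy libraries had 33.3 and 59.5 CPM. Trp53 stood at 86.1 and 97.3 CPM in Rbpj-deleted tumours, 95.5 and 84.7 CPM in control tumours, and 89.9 and 82.0 CPM in the healthy libraries, so its labelled loss was not seen in the sorted cells. The labels do not say whether the counted 3' ends lie in the deleted parts of these genes. Ptprc, which encodes CD45, had a UMI in 66.8% to 88.7% of barcodes. A total of 119 barcode sequences occurred in more than 1 library, and 256 barcodes, 19 of them cycling, were likely index-hopped copies.

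Cycling barcodes were deep and mixed, and every result below carries that property. Their median depth was 29511 UMIs, against 6248 in the other barcodes. At least 3 UMIs of a second lineage sum were present in 866 cycling barcodes (78.9%), against 24.8% of the others. The others came mostly from healthy brain and the cycling ones mostly from tumours, so the gap is also given within libraries. In the 4 tumour libraries this share was 54.5% to 87.3% in cycling and 33.6% to 38.7% in other microglia barcodes, and 68.3% to 93.1% in cycling and 54.5% to 73.9% in other T cell barcodes. In healthy brain 27 of 44 and 2 of 10 cycling microglia barcodes met it, against 11.0% and 3.47% of the other microglia barcodes. The microglia genes summed to 1897 and 2078 CPM in cycling and 2387 and 2590 CPM in other microglia barcodes of Rbpj-deleted tumours, and to 2347 and 2621 CPM in cycling and 3284 and 3272 CPM in other microglia barcodes of control tumours. The T cell genes summed to 495 and 455 CPM in cycling and 230 and 270 CPM in other microglia barcodes of Rbpj-deleted tumours, and to 727 and 937 CPM in cycling and 314 and 516 CPM in other microglia barcodes of control tumours. Cycling microglia barcodes thus held less microglia RNA and more T cell RNA than the others in all 4 tumour libraries. The cut of 3 UMIs is fixed, so deeper barcodes meet it more readily. In T cell barcodes the monocyte-derived genes summed to 607 and 591 CPM in cycling and 505 and 837 CPM in others of Rbpj-deleted tumours. In control tumours they summed to 332 and 837 CPM in cycling and 774 and 1151 CPM in other T cell barcodes. Border macrophage genes were higher in cycling than in other T cell barcodes in all 4 tumour libraries, and microglia genes shared no direction. The part of 2-cell droplets and free RNA in these values was not tested. Results are therefore also given for barcodes with fewer than 3 UMIs of any second lineage, called single-lineage barcodes below, and after thinning each barcode to 3000 UMIs. Both choices were made on knowledge of the data.

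The chosen limit of 4 genes lay in a sparse range. No gene of the 8 had a UMI in 12614 barcodes, 3 genes had one in 321, 4 genes in 150, and all 8 in 565. Barcodes just outside the rule, with 3 genes, had a median of 21858 UMIs, and those just inside, with 4 genes, had 24306 UMIs. All 8 genes were present in 59.6% of cycling T cell barcodes, 51.6% of monocyte-derived, 50.9% of border macrophage and 48.4% of microglia barcodes.

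**Figure D1:**
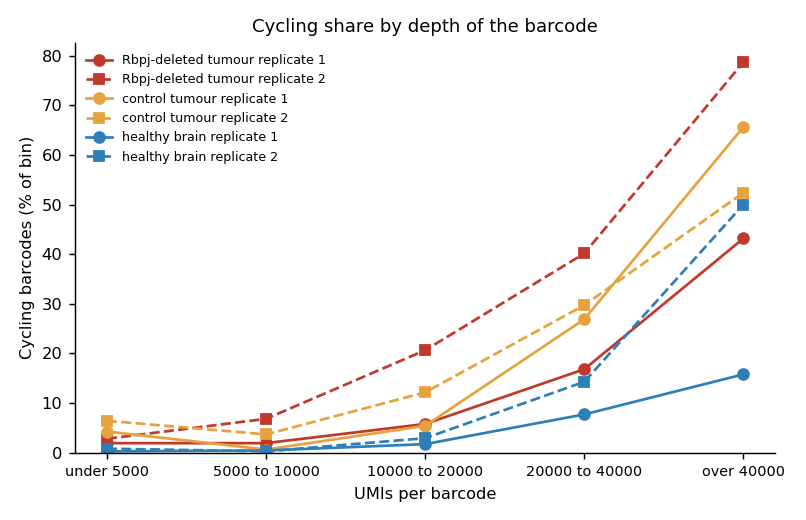
Share of barcodes that cycle (y axis, % of the bin) by UMIs per barcode (x axis), with 1 line per library coloured by group. Below 5000 UMIs the tumour libraries lay between 1.92% and 6.43% and the healthy libraries at 0.263% and 0.813%, while above 40000 UMIs Rbpj-deleted replicate 2 reached 78.7%.

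Microglia carried the largest log2 gap between tumour and healthy brain, measured from a low healthy share. Cycling made up 8.51% (95% Clopper-Pearson interval 7.26 to 9.89) and 23.2% of microglia barcodes in the Rbpj-deleted tumours, 5.15% and 15.2% in control tumours, against 0.730% and 0.480% in the healthy libraries. Both tumour groups lay above both healthy libraries, while the tumour groups overlapped each other. The fitted share was 4.65 ± 0.61 log2 units higher in Rbpj-deleted tumours than in healthy brain (edgeR quasi-likelihood, Benjamini-Hochberg adjusted p = 7.79e-05) and 4.02 ± 0.61 higher in control tumours (adjusted p = 0.000152). Between Rbpj-deleted and control tumours the difference was 0.63 ± 0.54 (adjusted p = 0.444), which did not exceed the spread between libraries.

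Border macrophages followed the same order with smaller log2 differences. These were not called different from those of microglia (limma adjusted p = 0.0730 for Rbpj-deleted and 0.110 for control tumours). Cycling shares were 11.3% and 16.0% in Rbpj-deleted tumours, 10.3% and 9.72% in control tumours, against 1.61% and 2.47% in the healthy libraries. The difference from healthy brain was 2.77 ± 0.61 log2 units for Rbpj-deleted tumours (edgeR adjusted p = 0.00258) and 2.34 ± 0.67 for control tumours (adjusted p = 0.0136). The control value rests on 19 cycling barcodes and lost its call without control replicate 1 (2.30, adjusted p = 0.0767), healthy replicate 1 (2.0, adjusted p = 0.201) or healthy replicate 2 (2.61, adjusted p = 0.0670). Without healthy replicate 1 the Rbpj-deleted value was not called either (2.44, adjusted p = 0.112).

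T cells had the highest cycling share of the 4 lineages in 5 of 6 libraries, all but Rbpj-deleted replicate 2, and were not called different between any groups. Their cycling share was 19.1% and 21.9% in Rbpj-deleted tumours, 21.6% and 37.7% in control tumours, against 10.9% and 17.6% in the healthy libraries, where only 46 and 34 T cell barcodes were present. Of the healthy cycling T cell barcodes, 2 of 5 and 2 of 6 were likely index-hopped copies. Of the other healthy T cell barcodes, 8 of 41 and 8 of 28 were. The T cell difference from healthy brain was 0.55 ± 0.66 log2 units in Rbpj-deleted tumours (edgeR adjusted p = 0.488) and 1.07 ± 0.65 in control tumours (adjusted p = 0.283). Monocyte-derived barcodes cycled at 6.76% and 12.8% in Rbpj-deleted tumours, 7.05% and 7.84% in control tumours, against 5.10% and 4.35% in the healthy libraries. The healthy values rest on 5 and 4 cycling barcodes. In healthy replicate 1 the monocyte-derived genes summed to 517 CPM in these and 4026 CPM in the other monocyte-derived barcodes. In healthy replicate 2 they summed to 4222 and 3103 CPM. The gap in monocyte-derived cycling share was 1.06 ± 0.67 log2 units for Rbpj-deleted tumours (edgeR adjusted p = 0.283). It passed the test without Rbpj-deleted replicate 1 (1.42, adjusted p = 0.0252). Of the 12 tests, 4 were called.

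**Figure D2:**
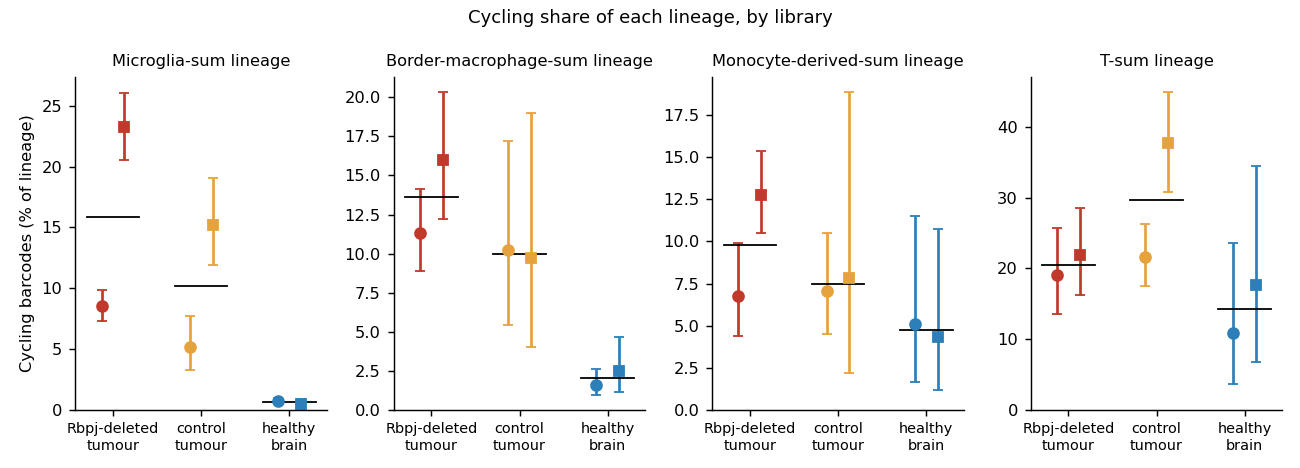
Share of each lineage's barcodes that cycle (y axis, %), with circles for replicate 1, squares for replicate 2, 95% Clopper-Pearson intervals covering counting error only, and lines at the mean of 2 libraries. Microglia averaged 15.9% in Rbpj-deleted tumours, 10.2% in control tumours and 0.605% in healthy brain, and T cells averaged 20.5%, 29.7% and 14.3% in the same groups.

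Single-lineage microglia barcodes had a lower cycling share than all microglia barcodes in each of the 6 libraries, and the gap between tumour and healthy brain was still called. Their cycling share was 2.41% and 8.84% in Rbpj-deleted tumours, 3.58% and 3.59% in control tumours, against 0.319% and 0.398% in the healthy libraries, from 72, 18 and 25 cycling barcodes in the 3 groups. The difference from healthy brain was 3.93 log2 units for Rbpj-deleted tumours (edgeR adjusted p = 0.00251) and 3.32 for control tumours (adjusted p = 0.00739). After thinning it was 4.38 and 3.09 in these groups, and both were called. Both border macrophage calls were lost in single-lineage barcodes (2.23, edgeR adjusted p = 0.12 for Rbpj-deleted tumours, and 1.75, adjusted p = 0.676 for control tumours).

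**Figure D3:**
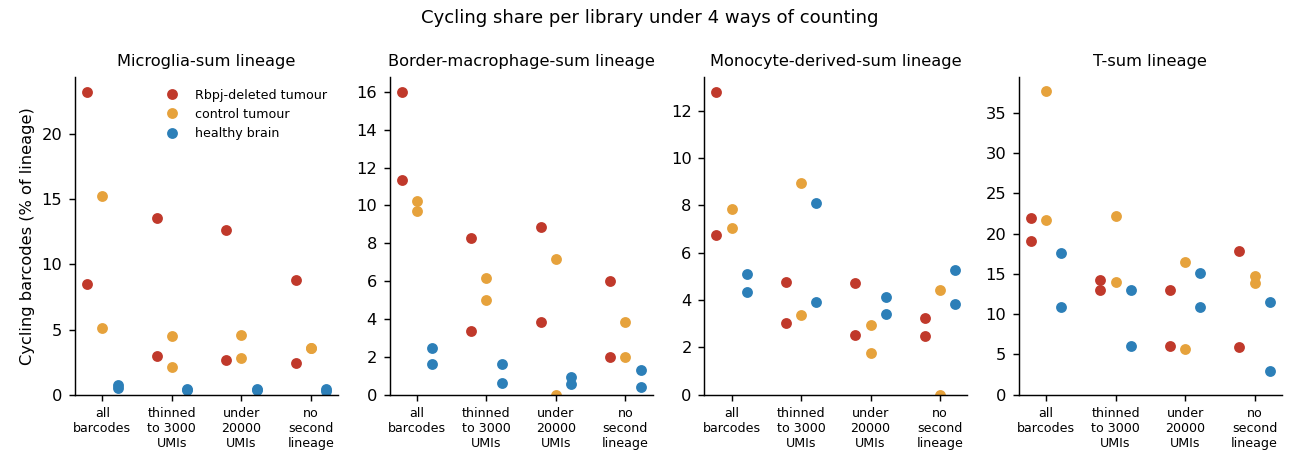
Cycling share per library (y axis, % of the lineage) for all barcodes, barcodes thinned to 3000 UMIs, barcodes under 20000 UMIs and single-lineage barcodes, with 1 point per library coloured by group. Every tumour library lay above both healthy libraries for microglia under all 4 ways of counting.

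A second reading used 8 replication genes that the rule did not touch (Mcm3, Mcm5, Mcm6, Tyms, Rrm2, Uhrf1, Clspn and Gins2), with at least 4 detected. Mcm3, Mcm5 and Mcm6 are helicase subunits, Tyms and Rrm2 make nucleotides, Uhrf1 maintains DNA methylation, Clspn is a checkpoint adaptor and Gins2 is part of the replicative helicase. A total of 1212 barcodes met it, and 811 of them were also cycling, which is 73.9% of the cycling and 66.9% of the S phase barcodes. The microglia share was 4.70 ± 0.54 log2 units higher in Rbpj-deleted tumours than in healthy brain (edgeR adjusted p = 2.01e-05) and 4.0 ± 0.54 higher in control tumours (adjusted p = 4.95e-05). T cells were called on this reading, at 1.79 ± 0.67 in Rbpj-deleted (edgeR adjusted p = 0.0417) and 2.13 ± 0.66 in control tumours (adjusted p = 0.0225). Both T cell calls were lost after thinning (0.63, edgeR adjusted p = 0.515 for Rbpj-deleted tumours, and 0.36, adjusted p = 0.685 for control tumours), in single-lineage barcodes (1.42 and 1.37) and when index-hopped copies were removed (1.40 and 1.72). The microglia call in control tumours was lost after thinning (2.16, edgeR adjusted p = 0.0614) and in single-lineage barcodes (2.02, adjusted p = 0.190). The T cell calls were lost without either healthy library, at 1.57 and 2.0 for Rbpj-deleted and 1.91 and 2.34 for control tumours. For Rbpj-deleted tumours the T cell call was also lost without either Rbpj-deleted library, at 1.76 and 1.83. Both readings come from the same barcodes, so depth and mixing act on each.

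The make-up of the cycling pool differed in its leading lineage. Microglia made up 53.8% and 51.3% of cycling barcodes in Rbpj-deleted tumours, against 15.6% and 42.9% in control tumours. T cells made up 11.9% and 9.69% in Rbpj-deleted tumours, against 54.6% and 49.0% in control tumours, so the groups did not overlap. The T cell difference was -2.26 ± 0.78 log2 units (edgeR unadjusted p = 0.0113), and after adjustment over 15 tests it was not called (adjusted p = 0.17). It was called in single-lineage barcodes (-1.75, adjusted p = 0.0330) and after thinning (-2.08, adjusted p = 0.000255). Among all barcodes, T cells were 365 of 5405 in Rbpj-deleted and 547 of 2050 in control tumours. Microglia were 2744 and 841 of the same totals. The cycling pool thus split in the same direction as all barcodes did, and the T cell cycling share itself was not called different. The make-up test did not take the lineages of all barcodes into account. A make-up is a set of shares, so a lineage that is low leaves room for the others. The sort and the dissection fix which cells entered it.

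Within T cells, barcodes with CD8 transcripts cycled more often than those with CD4 in all 4 tumour libraries. The CD8-type share was 29.0% and 35.4% in Rbpj-deleted tumours and 30.7% and 42.2% in control tumours. The CD4-type share was 21.3% and 16.7% in Rbpj-deleted tumours and 19.7% and 33.3% in control tumours, the last from 2 of 6 barcodes. Barcodes with neither cycled at 5.21% to 8.33% and were shallower, with medians of 3609 to 7494 UMIs. CD8-type medians were 10729 and 8033 UMIs in Rbpj-deleted and 12755 and 17415 in control tumours. CD4-type medians were 14009 and 5474 UMIs in Rbpj-deleted and 9867 and 10468.5 in control tumours. CD8-type barcodes were thus deeper in every tumour library but Rbpj-deleted replicate 1. The gap between CD8-type and CD4-type was 7.71 and 18.7 percentage points in Rbpj-deleted tumours and 11.0 and 8.90 in control tumours, and it was not tested. The 95% Clopper-Pearson intervals of the CD8-type and CD4-type shares overlapped in each of these libraries. In single-lineage barcodes the gap was 5.68 and 40.4 points in Rbpj-deleted and 27.1 and 26.7 points in control tumours. There the CD4-type barcodes numbered 8 and 16 in Rbpj-deleted and 29 and 2 in control tumours. With mixed barcodes included, the healthy libraries did not share a direction: CD8-type barcodes cycled at 27.3% and 11.1% and CD4-type barcodes at 11.1% and 37.5%, from 8 to 11 barcodes each. The healthy CD8-type barcodes had medians of only 2017 and 1401 UMIs.

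The balance of replication and mitotic RNA in cycling barcodes varied between lineages and libraries. These barcodes were chosen on mitotic genes, and S phase barcodes that miss the rule are left out, so it does not measure the share of cells in each phase. A list of 25 other replication genes was set against 33 other G2 and M genes, summed in CPM. Pooled over all libraries, the ratio in cycling barcodes was 0.679 in T cells, 0.585 in monocyte-derived cells, 0.581 in border macrophages and 0.544 in microglia. In microglia it was 0.684 and 0.434 in Rbpj-deleted tumours, 0.647 and 0.650 in control tumours, against 0.465 and 0.353 in the healthy libraries. In T cells it was 0.734 and 0.635 in Rbpj-deleted tumours, 0.742 and 0.629 in control tumours, against 0.328 and 0.266 in the healthy libraries, the last pair from 5 and 6 barcodes. The T cell ratio thus lay below that of microglia in control replicate 2 and in both healthy libraries, unlike the pooled order. Pooled over libraries, the 33 G2 and M genes summed to 3276 CPM in cycling T cells and 1485 CPM in cycling microglia. By library the microglia sum ran from 1107 CPM in control replicate 2 to 6658 CPM in healthy replicate 2. T cells were higher than microglia in every library but healthy replicate 2, where they had 6165 CPM.

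D-type cyclins, which open the cycle, are given as pooled levels in single-lineage barcodes of the 4 tumour libraries, since other microglia came mostly from healthy brain. Ccnd1 stood at 74.3 CPM in cycling and 70.2 CPM in other microglia barcodes, and at 1.19 CPM, a single UMI in 43 barcodes, in cycling T cells against 13.9 CPM in other T cells. Ccnd2 was at 127 CPM in cycling and 242 CPM in other T cells, and lower in cycling T cells in all 4 libraries. In microglia Ccnd2 was at 16.5 CPM in cycling and 10.8 CPM in other barcodes. Ccnd3 was at 49.8 CPM in cycling and 47.5 CPM in other T cells. With mixed barcodes included, Ccnd1 was at 38.7 CPM in cycling and 38.0 CPM in other T cells of these libraries.

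Inhibitors of the cycle were read in the same tumour barcodes. Cdkn1a, the p53 target p21, was at 748 and 306 CPM in cycling and 242 and 97.3 CPM in other microglia of Rbpj-deleted tumours, and at 117 and 310 CPM in cycling and 186 and 104 CPM in other microglia of control tumours. It was thus higher in cycling microglia in 3 of 4 libraries, and control replicate 1 went the other way, from 16 UMIs in 10 cycling barcodes. In T cells, pooled Cdkn1a was at 22.6 CPM in cycling and 74.6 CPM in other barcodes. Cdkn2c, the p18 inhibitor of Cdk4 and Cdk6, was higher in cycling barcodes of both lineages in all 4 libraries, pooled at 127 against 11.8 CPM in microglia and 70.0 against 25.8 CPM in T cells. Btg2, an antiproliferative p53 target, was lower in cycling barcodes of both lineages in all 4 libraries, pooled at 1469 against 2276 CPM in microglia and 329 against 1161 CPM in T cells. Foxm1, the late mitotic activator, was pooled at 25.7 CPM in cycling and 0.745 CPM in other microglia. These levels rest on 90 cycling microglia and 43 cycling T cell barcodes and were not tested.

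**Figure D4:**
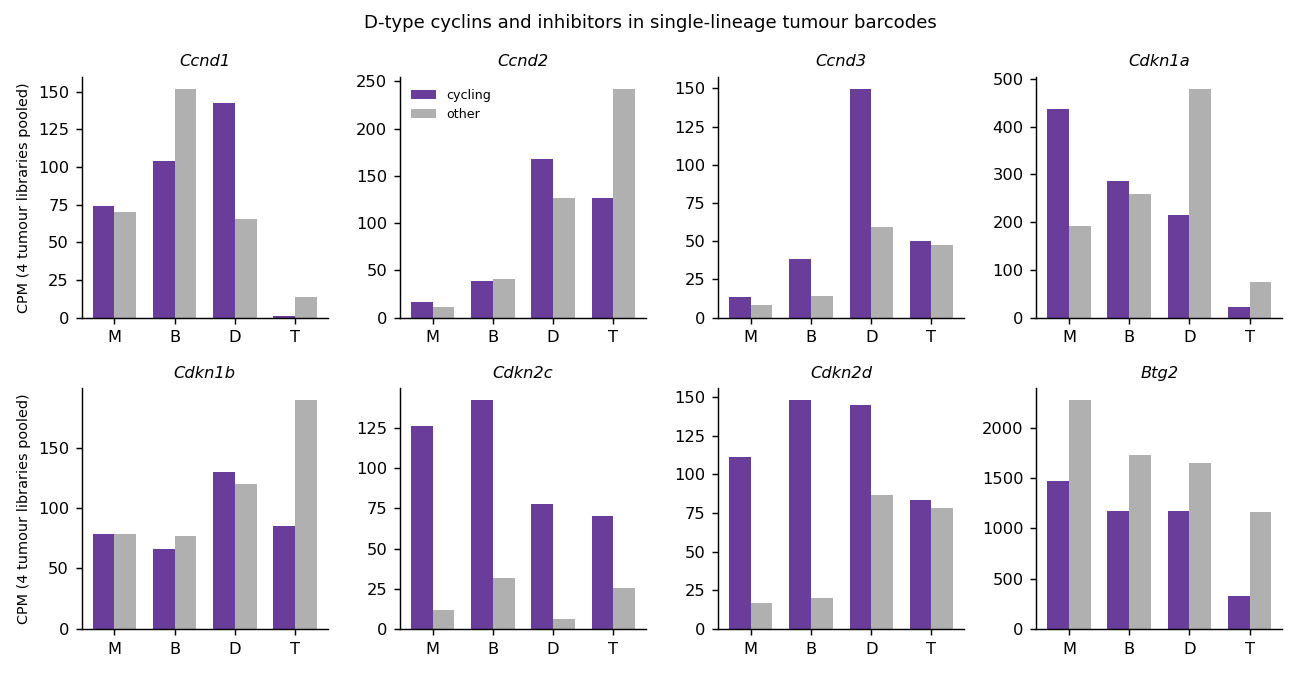
Levels in CPM (y axes), pooled over the 4 tumour libraries, of D-type cyclins and cell cycle inhibitors in cycling (purple) and other (grey) single-lineage barcodes of microglia (M), border macrophages (B), monocyte-derived cells (D) and T cells (T). Btg2 stood at 1469 CPM in cycling and 2276 CPM in other microglia, and at 329 CPM in cycling and 1161 CPM in other T cells.

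To describe what else separated cycling from other barcodes of a lineage, counts were summed per library and tested with edgeR, with the library as a block. The 2 classes were split on transcripts of the same barcodes, so cell cycle genes had to differ and are given as a description. In microglia, 1150 of 12457 genes rose in cycling barcodes (9.23%) and 971 fell (7.79%). All 33 G2 and M genes outside the rule were among those that rose, with a median of 4.76 log2 units, and so were 20 of 23 tested replication genes, with a median of 2.0. Hist1h1b, a replication-dependent H1 histone, stood at 296 CPM in cycling and 6.37 CPM in other barcodes, and the mitotic gene Aspm at 28.0 and 0.335 CPM.

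Genes of resting microglia were lower in cycling microglia barcodes. Of 12 homeostatic genes tested, 11 fell and 0 rose, with a median of -0.47 against -0.04 over all genes. Siglech, a sialic acid-binding lectin of microglia, was lower in each of the 5 libraries, at 652 and 438 CPM in cycling against 891 and 608 CPM in other barcodes of Rbpj-deleted tumours. In control tumours Siglech was at 553 and 887 CPM in cycling against 947 and 1124 CPM in other barcodes, and in healthy replicate 1 at 1059 against 1659 CPM. Its change was -0.60 ± 0.08 (edgeR adjusted p = 0.000461). The 6 microglia genes of the lineage sum fell by a similar median of -0.48, beside a rise of 3 of 4 T cell and 3 of 5 border macrophage genes. In single-lineage barcodes, where 11.1% of 9205 genes were called, 6 of 11 homeostatic genes fell (median -0.78).

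In the list of microglia growth factor signalling, which holds ligands, receptors and transcription factors, 5 of 13 genes fell and 0 rose. Csf1r, the receptor that microglia depend on for survival, was at 2337 CPM in cycling and 3028 CPM in other barcodes (-0.45 ± 0.09, edgeR adjusted p = 0.00476). Tgfbr1 was at 524 and 771 CPM (-0.63 ± 0.12, edgeR adjusted p = 0.00958). Ccr6, a chemokine receptor, was at 155 and 272 CPM (-0.87 ± 0.16, edgeR adjusted p = 0.0119), and Txnip, an inhibitor of thioredoxin and glucose uptake, at 85.4 and 154 CPM. Of 23 disease-associated genes, 4 fell, Trem2 among them at 2163 and 2819 CPM, and 0 rose.

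Immediate early genes, which respond to stimulation and to tissue handling, fell in 6 of 16 cases, and 9 of 16 fell in single-lineage barcodes (median -0.91). Interferon response genes rose in 4 of 22 and fell in 1, with Isg15 at 291 CPM in cycling and 206 CPM in other barcodes (0.40 ± 0.08, edgeR adjusted p = 0.00541). In the T cell activation list 7 of 22 genes rose and 3 fell in cycling microglia barcodes. In single-lineage barcodes 0 of 12 rose, and 1 fell.

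**Figure D5:**
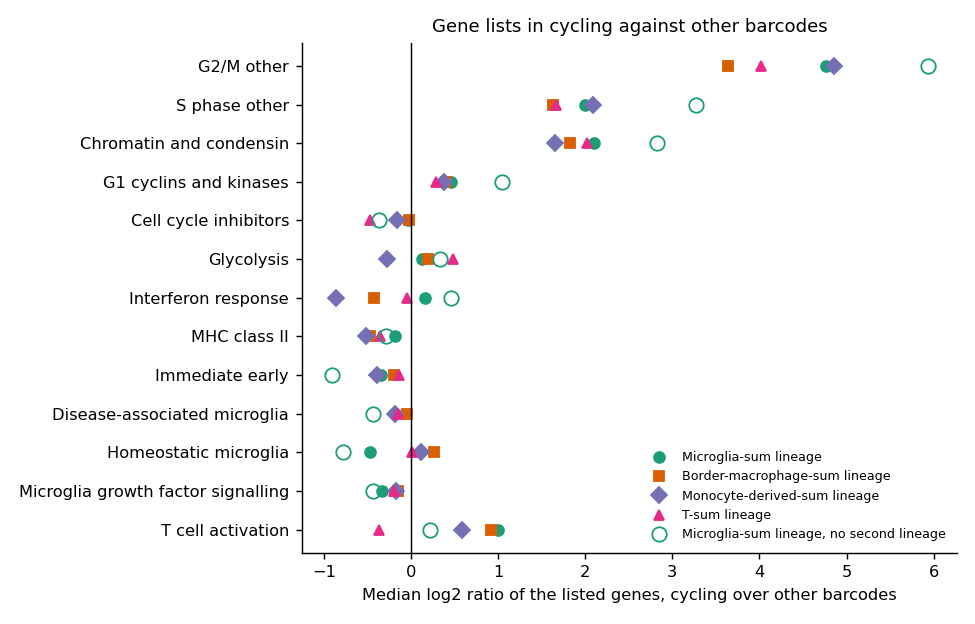
Median log2 ratio, cycling over other barcodes (x axis), of the genes of each list (y axis), with filled symbols for the 4 lineages and open circles for single-lineage microglia barcodes. The homeostatic list was at -0.47 in microglia and -0.78 in single-lineage microglia, and the G2 and M list lay far above all others, as the choice of barcodes requires.

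In T cells, 1041 of 9302 genes rose in cycling barcodes (11.2%) and 810 fell (8.71%), over the 4 tumour libraries. Natural killer genes were lower, and 4 of 4 tested fell, with a median of -2.73. Ncr1, an activating receptor of natural killer cells, was at 5.22 and 24.7 CPM in cycling barcodes of Rbpj-deleted tumours and 4.04 and 6.61 CPM in those of control tumours. In other T cell barcodes Ncr1 was at 119 and 167 CPM in Rbpj-deleted tumours and 160 and 102 CPM in control tumours (-4.09 ± 0.36, edgeR adjusted p = 0.000395). The T lineage sum does not separate natural killer cells that carry some Cd3 transcripts, and their share was not tested.

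Tcf7, a factor of naive and stem-like T cells, was at 2.72 CPM in cycling and 15.4 CPM in other barcodes (-2.67 ± 0.44, edgeR adjusted p = 0.000141). Ccl5, a chemokine of effector and natural killer cells, was at 2005 and 7325 CPM (-1.90 ± 0.25, edgeR adjusted p = 0.00632). Of 22 genes of the T cell activation list, 6 fell and 0 rose, and in single-lineage barcodes 5 of 20 fell and 3 rose.

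Glycolysis genes were higher in cycling T cells, where 7 of 12 rose and 0 fell. Tpi1 was at 315 CPM in cycling and 174 CPM in other barcodes (0.80 ± 0.11, edgeR adjusted p = 6.62e-06) and Ldha at 879 and 501 CPM (0.72 ± 0.11, edgeR adjusted p = 6.55e-05). In single-lineage barcodes, where 20.8% of 4144 genes were called, 5 of 12 rose and 0 fell. In microglia 3 of 14 rose and 2 fell. Fabp5, a lipid carrier, was at 240 CPM in cycling and 120 CPM in other T cell barcodes.

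In monocyte-derived cells, 439 of 10851 genes rose (4.05%) and 294 fell (2.71%), from 3 tumour libraries with 2 residual degrees of freedom. Interferon genes fell in 7 of 22 cases (median -0.86), and 14 of 21 fell in single-lineage barcodes, where 11.6% of 7664 genes were called. Ifit1, an interferon-induced RNA sensor, was at 48.0 and 64.5 CPM in cycling barcodes of Rbpj-deleted tumours and 6.02 CPM in control replicate 1, against 100 and 117 CPM and 27.6 CPM in the other barcodes. Lgals3, galectin-3, was at 534 CPM in cycling and 1018 CPM in other barcodes. Of 7 endothelial and mural genes 4 fell and 0 rose, with Cldn5, a tight junction gene, at 0.193 CPM in cycling and 54.2 CPM in other barcodes. Dcn, which encodes a matrix proteoglycan, was at 3.42 CPM in cycling and 121 CPM in other barcodes. The monocyte-derived sum does not separate barcodes that carry such endothelial or matrix transcripts, and their part in the falls was not tested.

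In border macrophages, 773 of 9809 genes rose (7.88%) and 605 fell (6.17%), from the 2 Rbpj-deleted libraries alone with 1 residual degree of freedom, so levels are given without p-values. MHC class II genes, which present antigen to CD4 T cells, fell in 6 of 7 cases, with H2-Eb1 at 4960 CPM in cycling and 7724 CPM in other barcodes. Retnla, a marker of alternative activation, was at 36.1 and 15.2 CPM in cycling against 241 and 224 CPM in other barcodes. Ccl8, a monocyte chemokine, was at 2717 and 1298 CPM against 6038 and 3378 CPM. Of 19 T cell activation genes 12 rose, Gzmb among them at 122 and 36.2 CPM, beside a T cell sum of 644 and 516 CPM in cycling against 269 and 272 CPM in other barcodes. In single-lineage barcodes, where 3.44% of 5840 genes were called, 0 of 6 MHC class II genes fell and 0 of 3 T cell activation genes rose, from 5 and 9 cycling barcodes.

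Between Rbpj-deleted and control tumours, few genes of cycling barcodes were called, and the fits could miss many. In simulated counts with a change of 1 log2 unit, these fits called 46.9% of changed genes in microglia and 59.0% in T cells. The simulated spread between libraries was set to a fixed value and not taken from these data, so the real fits may find fewer. In cycling T cells, for example, Itgax (1.98 ± 0.36, edgeR adjusted p = 0.0661) and Pdcd1 (-1.61 ± 0.31, edgeR adjusted p = 0.0734) were not called. A low count called therefore does not show that the tumour groups were alike. In cycling microglia, 20 of 11692 genes were higher in Rbpj-deleted tumours (0.171%) and 22 were lower (0.188%), by edgeR with 2 residual degrees of freedom. In cycling T cells, 16 of 9203 genes were higher (0.174%) and 7 lower (0.0761%). The count called reached 304 in microglia without control replicate 1 and 666 in T cells without control replicate 2. Of all genes tested in microglia, 37.6% had libraries that did not overlap between the tumour groups.

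The largest differences lay in genes on which the libraries split in all cells. Trim12a, a TRIM family gene with near-identical neighbours, was at 44.5 and 41.9 CPM in cycling microglia of Rbpj-deleted tumours, against 0 and 0.229 CPM in control tumours. Over all barcodes Trim12a was at 48.6 and 46.7 CPM in Rbpj-deleted tumours, 0.275 and 0.445 CPM in control tumours, against 0.0905 and 31.7 CPM in the healthy libraries. Healthy replicate 2 thus lay near the Rbpj-deleted libraries although its label has no deletion. H2-Eb1, an MHC class II beta chain, differed by 6.07 ± 0.39 in cycling microglia (edgeR adjusted p = 5.46e-05). Over all barcodes it was at 6263 and 4301 CPM in Rbpj-deleted tumours, 80.4 and 69.1 CPM in control tumours, against 5.94 and 346 CPM in the healthy libraries. Tpm3 and its near-identical copy Tpm3-rs7 split in opposite directions, with Tpm3 at 67.7 and 72.0 CPM in Rbpj-deleted tumours, 538 and 488 CPM in control tumours, and 432 and 93.9 CPM in the healthy libraries. Counts of such genes are uncertain, and this split and the Rbpj genotype cannot be told apart between the tumour groups.

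Transcripts of CD8 T cells were lower in cycling microglia barcodes of Rbpj-deleted tumours. Cd8a was at 42.4 and 45.2 CPM there, against 138 and 159 CPM in control tumours (-1.70 ± 0.25, edgeR adjusted p = 0.0122). Pdcd1, the PD-1 receptor of activated T cells, was at 33.4 and 37.8 CPM in Rbpj-deleted tumours, against 99.0 and 112 CPM in control tumours (-1.50 ± 0.26, edgeR adjusted p = 0.0321). The 4 T cell genes of the lineage sum stood beside them at 495 and 455 CPM in Rbpj-deleted tumours and 727 and 937 CPM in control tumours, in the same microglia barcodes. Their part in the result was not tested.

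The other genes named here differed by less than H2-Eb1. S100a4, a calcium-binding protein of motile leukocytes, was lower in Rbpj-deleted tumours in cycling microglia (-1.60 ± 0.28, edgeR adjusted p = 0.0392) and in cycling T cells (-2.30 ± 0.31, edgeR adjusted p = 0.0109). Ctse, cathepsin E, was at 1.33 and 2.11 CPM in cycling microglia of Rbpj-deleted tumours and 34.1 and 15.5 CPM in those of control tumours (-3.56 ± 0.50, edgeR adjusted p = 0.00897). Of 23 disease-associated genes in cycling microglia 0 were called, although 19 had positive values and the median was 0.67. Spp1, osteopontin, was at 366 and 1227 CPM in Rbpj-deleted tumours and 125 and 190 CPM in control tumours (2.39 ± 0.58, edgeR adjusted p = 0.282). In single-lineage barcodes 6 genes of 4893 (0.123%) were called in microglia and 2 of 2113 (0.0947%) in T cells.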

How the data were processed

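The authors deposited a table of whole-number counts per gene and barcode. The submitters' processing notes name kallisto 0.46.0, bustools 0.39.3 and mm10, with no role given to them. Counts were used as deposited, with no further cell filter and no doublet caller. Genes were named from GENCODE vM21 (19 of 27378 had no symbol). Members, gene lists and tests were chosen with earlier results of these data known. For the shares, barcode counts entered quasi-likelihood models (edgeR 4.0.16), with the lineage's barcodes as offset and p-values adjusted over 12 tests. The 4 lineages share libraries, so the 12 residual degrees of freedom (3 per lineage) are too many. Genes were tested on counts summed per library, lineage and class where at least 20 barcodes cycled. Log2 values are given ± SE, and genes were called at adjusted p under 0.05. The libraries may be technical replicates, so p-values measure the spread between them. Named genes were up to 10 largest rises and falls with at least 20 CPM and libraries agreeing in direction, and up to 4 per list, and only some of these are printed. Single-lineage gene fits kept the libraries of the full fit, down to 3 cycling barcodes. Replicate numbers were not used to pair libraries in the main fits. Intervals cover counting error only. Limma 3.58.1 and DESeq2 1.42.0 gave alternatives. The fits were tested on simulated data with a set spread between libraries.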

Additional observations from a re-analysis of the deposited data

Results flagged for a closer look

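The tumour-minus-healthy difference in cycling share, in log2 units, differed between lineages in tests added after seeing the data (limma, Benjamini-Hochberg over 9 comparisons). For Rbpj-deleted tumours it was larger in microglia than in monocyte-derived cells by 3.67 (adjusted p = 0.00433) and than in T cells by 4.05 (adjusted p = 0.00433). For control tumours it was larger in microglia than in monocyte-derived cells by 3.27 (adjusted p = 0.0061) and than in T cells by 2.92 (adjusted p = 0.00914). In all of these both tumour libraries lay above both healthy libraries for microglia. The healthy shares behind them rest on 5 and 4 cycling monocyte-derived barcodes and on 5 and 6 cycling T cell barcodes. In single-lineage barcodes these 4 differences were 4.41, 3.08, 4.05 and 2.34, and all were called. After thinning, that between microglia and T cells in control tumours was not called (2.23, adjusted p = 0.0592), and the other 3 were. Microglia and border macrophages were not called different on this share (1.83 for Rbpj-deleted tumours and 1.55 for control tumours).

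On the S phase share the difference in Rbpj-deleted tumours was larger in microglia than in border macrophages by 2.49, than in monocyte-derived cells by 3.80 and than in T cells by 3.07. In control tumours these differences were 2.34, 3.14 and 2.06. All 6 passed the same test in all barcodes. In single-lineage barcodes 1 of the 6 was called, that between microglia and monocyte-derived cells in Rbpj-deleted tumours (3.82, adjusted p = 0.0296). There the differences from border macrophages and T cells were 2.13 (adjusted p = 0.146) and 2.45 (adjusted p = 0.142) in Rbpj-deleted tumours. Those from border macrophages, monocyte-derived cells and T cells were 0.53 (adjusted p = 0.596), 1.79 (adjusted p = 0.172) and 0.88 (adjusted p = 0.435) in control tumours. After thinning, the difference from border macrophages in Rbpj-deleted tumours was not called (1.35, adjusted p = 0.0897), and the other 5 were.

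Unassigned barcodes, used in no comparison of lineages, cycled at 8.20% in Rbpj-deleted tumours and 6.67% in control tumours, above 0.980% in healthy brain (means of 2 libraries each). The healthy value rests on 2 cycling barcodes of 172. A tie includes barcodes with no UMI of any lineage gene, which were 10 of the 31 unassigned cycling barcodes. In the unassigned barcodes that did not cycle, each lineage sum had a median of 0.0 UMIs.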

How the results depend on the processing

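Values are log2 differences of shares or numbers of genes called, and the cause of each shift was not tested. Single-lineage fits rest on few barcodes. The microglia cycling calls kept their direction and call under every alternative run.

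Cycling share, border macrophages, control tumours against healthy brain: 2.03 with at least 5 genes, 2.48 thinned, 2.14 with a clear lineage, 1.75 single-lineage, 0.67 with a second lineage at most 10% of the first and 2.03 under 20000 UMIs, none called. For Rbpj-deleted tumours the border macrophage value was 2.23 single-lineage, not called, and the monocyte-derived value was 1.47 with at least 3 genes, called.

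S phase share, control tumours against healthy brain: microglia 2.16 thinned, 2.02 single-lineage, 2.50 with a second lineage at most 10% and 2.64 under 20000 UMIs, none called. Border macrophages were at 1.28 with a clear lineage, 1.15 single-lineage, 0.82 at most 10% and 0.66 under 20000 UMIs, none called, and reversed to -3.76 thinned. Monocyte-derived cells reversed to -4.03 thinned (called). T cells were at 0.36 thinned, 1.72 without index-hopped copies, 1.37 single-lineage and 1.02 under 20000 UMIs, none called. For Rbpj-deleted tumours against healthy brain, border macrophages were at 1.86 with a clear lineage, 1.49 single-lineage, 1.80 at most 10% and 1.92 under 20000 UMIs, none called. Monocyte-derived cells were at 1.52 with at least 3 genes, called. T cells were at 1.43 with at least 5 genes, 0.63 thinned, 1.40 without index-hopped copies, 1.42 single-lineage, 1.98 at most 10% and 1.18 under 20000 UMIs, none called. Rbpj-deleted against control tumours, thinned, gave 1.91 in microglia, 6.41 in border macrophages and 2.70 in monocyte-derived cells, all called. After thinning, the mean S phase share in control tumours was 0.0% of border macrophage and 0.167% of monocyte-derived barcodes. The thinned log2 values of these 2 lineages that involve control tumours, reversals included, therefore rest on almost no S phase barcodes, and their size has little meaning.

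Make-up, all called: Rbpj-deleted against control tumours, microglia 1.66 thinned and T cells -2.08 thinned, -1.75 single-lineage, -2.28 at most 10% and -2.02 under 20000 UMIs. Control tumours against healthy brain, microglia -1.60 thinned and T cells 2.71 thinned and 2.64 at most 10%. None of these values takes the lineages of all barcodes into account.

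Genes between tumour groups: microglia 42 against 239 with no filter on low counts, 6 single-lineage and 112 with a replicate block, and T cells 23 against 96 (DESeq2), 271 with no filter, 7 with a clear lineage, 2 single-lineage and 97 with a replicate block. Same-numbered libraries did not deviate in the same direction (correlations -0.376, 0.00311 and -0.116 over 5958 genes). With 2 libraries per group this cannot decide whether the numbers pair them. Genes of cycling against other barcodes: microglia 2121 against 1348 with a clear lineage, 1023 single-lineage, 359 with no replicate block and 1035 thinned; T cells 1851 against 975 (DESeq2), 864 single-lineage, 499 with no replicate block and 862 thinned. Monocyte-derived cells had 733 against 1458 with no filter, 267 with no replicate block and 401 thinned, and border macrophages 1378 against 317 (DESeq2), 609 with a clear lineage, 201 single-lineage, 173 with no replicate block and 315 thinned.

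Leaving out 1 library at a time, the cycling share in control tumours against healthy brain gave 2.0 to 2.61 in border macrophages. The cycling share in Rbpj-deleted tumours against healthy brain gave 2.44 to 3.05 in border macrophages, 0.51 to 1.42 in monocyte-derived cells. The S phase share in control tumours against healthy brain gave 1.28 to 1.95 in border macrophages, 1.75 to 2.44 in T cells. That border macrophage value lost its call without either healthy library, either Rbpj-deleted library or control replicate 1. The S phase share in Rbpj-deleted tumours against healthy brain gave 1.90 to 2.56 in border macrophages, 1.57 to 2.0 in T cells. Without healthy replicate 1 that border macrophage value was not called. The number of genes of cycling barcodes between groups gave 40 to 304 in microglia, 37 to 666 in T cells. The number of genes of cycling against other barcodes of a lineage gave 1222 to 2055 in microglia, 1155 to 1908 in T cells, 406 to 1728 in monocyte-derived cells. The counts of genes between tumour groups were highest without control replicate 1 in microglia and without control replicate 2 in T cells.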
